A study of Mus musculus with 6 samples.

Results

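The CpGs described here lie in 3 intervals of mouse chromosome 6 that were set to hold the imprinted genes Sgce and Peg10, Mest, and Nap1l5. The intervals are chr6:4670000-4765000 (Sgce and Peg10), chr6:30725000-30755000 (Mest) and chr6:58872000-58892000 (Nap1l5) in mm39. A CpG became a member when it had at least 10 reads, with its strands added, in at least 2 samples of each genotype. Of 135 CpGs listed in any sample, 92 passed, out of 881438 CpGs that passed in the whole series. The Sgce-Peg10 interval gave 44 of 68, the Mest interval 29 of 46 and the Nap1l5 interval 19 of 21.

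The study measured DNA methylation in the neocortex of mice at postnatal day 5 by reduced representation bisulfite sequencing (RRBS). In RRBS the enzyme MspI cuts DNA at CCGG, short fragments are kept, and bisulfite turns unmethylated cytosines into uracil. Tissue labelled Chd8+/- (3 samples), with 1 copy of Chd8, which encodes a chromatin remodeller, affected, was compared with tissue labelled WT, or wild type (3 samples), to model the human CHD8 disorder in mice. The Chd8 allele, the strain and the sex are not given in the labels, nor whether each sample is its own animal. The p-values therefore measure only the spread between these samples, which may be technical. DNA came from whole neocortex, so each level averages over all its cell types and both alleles.

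In imprinting, 1 parental copy of a gene is silenced by marks set in the germ line. A germline differentially methylated region carries DNA methylation on the copy from 1 parent only, so its level in DNA from both copies is near 50%. Peg10 and Sgce share a head-to-head promoter region methylated on the maternal copy, and both are expressed from the paternal one. Peg10, derived from a retrotransposon, encodes Gag-like and Pol-like proteins and is needed for the placenta. Sgce encodes epsilon-sarcoglycan, a membrane protein whose loss on the expressed copy causes myoclonus-dystonia in humans. Mest (also Peg1) encodes a protein of the alpha/beta hydrolase family linked to fetal growth, and Nap1l5, a retrogene of the nucleosome assembly protein family, lies inside its host gene Herc3. Both are expressed from the paternal copy. In the gene order of RefSeq (GRCm38.p6), Sgce lies between Casd1 and Peg10, Mest between Cep41 and Copg2, and Nap1l5 between Herc3 and Fam13a.

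The promoters themselves are shown to give their density of CpGs, and whether they carry imprinted methylation was not tested. RefSeq (GRCm38.p6) gave 300 bases, 250 before and 50 after a transcription start, for 2 of the 4 genes, Mest (with more than 1 start) and Nap1l5. The sequences are printed 5′ to 3′ on the strand of the gene, with each CG in capitals. The first Mest sequence is chr6:30733256-30733555 (plus strand), the second chr6:30737800-30738099 (plus strand) and that of Nap1l5 chr6:58907077-58907376 (minus strand), all in GRCm38.p6.
Mest, upstream start: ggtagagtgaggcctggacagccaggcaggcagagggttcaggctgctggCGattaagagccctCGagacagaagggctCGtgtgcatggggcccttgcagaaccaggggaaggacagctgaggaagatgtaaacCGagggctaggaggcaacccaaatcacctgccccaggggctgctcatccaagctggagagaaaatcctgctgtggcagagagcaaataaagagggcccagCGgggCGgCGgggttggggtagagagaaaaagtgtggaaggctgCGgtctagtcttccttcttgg
Mest, downstream start: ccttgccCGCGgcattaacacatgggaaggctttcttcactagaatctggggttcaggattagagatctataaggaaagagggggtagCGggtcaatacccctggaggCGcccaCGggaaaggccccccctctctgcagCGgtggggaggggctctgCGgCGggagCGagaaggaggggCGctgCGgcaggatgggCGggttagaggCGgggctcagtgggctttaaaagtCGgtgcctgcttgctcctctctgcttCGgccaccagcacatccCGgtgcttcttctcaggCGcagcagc
Nap1l5: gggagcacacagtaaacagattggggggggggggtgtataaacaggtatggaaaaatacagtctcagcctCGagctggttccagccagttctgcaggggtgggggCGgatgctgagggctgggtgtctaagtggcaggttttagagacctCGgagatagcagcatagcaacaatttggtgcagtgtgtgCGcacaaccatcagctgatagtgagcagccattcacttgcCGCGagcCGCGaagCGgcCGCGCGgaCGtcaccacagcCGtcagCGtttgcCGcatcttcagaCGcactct
The upstream Mest promoter held 8 CGs, and 48.7% of 32851 promoters of that length held as many or more. The downstream Mest promoter and the Nap1l5 promoter held 17 CGs each, which 31.4% of promoters reached, and the median promoter held 7. CCGG, which reads the same on both strands and contains CG, occurred once in the downstream Mest promoter and in neither of the others. In all, 52.8% of promoters held it. These positions belong to another build than the methylation tables and were not converted, so no level below is assigned to a letter of these sequences, and the gene feature (promoter, exon or intron) at a CpG was not analysed here.

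Summed coverage over all listed CpG cytosines ranged from 32285980 to 39820333 reads in Chd8+/- samples and from 45498222 to 54818138 reads in WT samples. The share of reads on chromosome X was 2.56% and 2.58% in replicate 3 of Chd8+/- and of WT, against 1.18 to 1.21% in the other 4 libraries. The WT libraries were deeper, and the Chd8+/- samples 1, 2 and 3 covered 92, 85 and 83 of the member CpGs, against 89 in each WT sample. The genotype labels were not checked here, since methylation does not measure the Chd8 allele. Across 102748 autosomal windows of 500 bp, edgeR's quasi-likelihood test called none at a Benjamini-Hochberg adjusted p under 0.05 (0%), and limma called none. At an unadjusted p under 0.05 edgeR passed 3605 windows (3.51%) and limma 5311.

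Each of the 3 intervals held a stretch of CpGs near 50%, which stood between or beside CpGs at other levels. A stretch is the run with the most 500-bp windows at a mean level of 30 to 70%, averaged over both genotypes. Windows with at least 3 member CpGs set the run, and windows with fewer or none neither counted nor broke it. These levels set the stretches and are given as a description. Such levels are not particular to these intervals, since 13618 of 94527 autosomal windows (14.4%) also had a mean of 30 to 70%. In the Sgce-Peg10 interval the stretch was 1 window, chr6:4747001-4747500, with 12 CpGs between positions 4747355 and 4747489 and a mean level of 51.4%. In the Mest interval it spanned 7000 bp, chr6:30732501-30739500, with 25 CpGs, 21 of them in its 5 windows with at least 3 CpGs and 4 in a pair of windows with 2 CpGs each, and a mean level of 45.3%. This stretch held gaps without member CpGs, from 30732876 to 30735293 and from 30736489 to 30738386. In the Nap1l5 interval it was 1 window, chr6:58883501-58884000, with 16 CpGs between positions 58883619 and 58883862 and a mean level of 49.3%. Among the windows with at least 3 CpGs, those just inside the limits had means of 33.8% (Mest) and 63.6% (Sgce-Peg10), and the nearest outside had 81.5%, in the Sgce-Peg10 interval.

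Many single CpGs of the stretches were intermediate too. The mean level of a CpG ran from 44.3 to 54.5% in the Sgce-Peg10 stretch and from 42.8 to 59.6% in the Nap1l5 stretch. In the Mest stretch it ran from 20.4% at CpG 30732876 to 65.8% at CpG 30735507. Of the levels of single CpGs in single samples, 66.7% (48 of 72) lay between 30 and 70% in the Sgce-Peg10 stretch, 60.3% (85 of 141) in the Mest stretch and 61.5% (59 of 96) in the Nap1l5 stretch. In the rest of each interval these shares were 11.0% (20 of 181), 45.0% (9 of 20) and 29.4% (5 of 17). Window levels set the stretches, so this contrast is a description and follows in part from the rule.

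**Figure D1:**
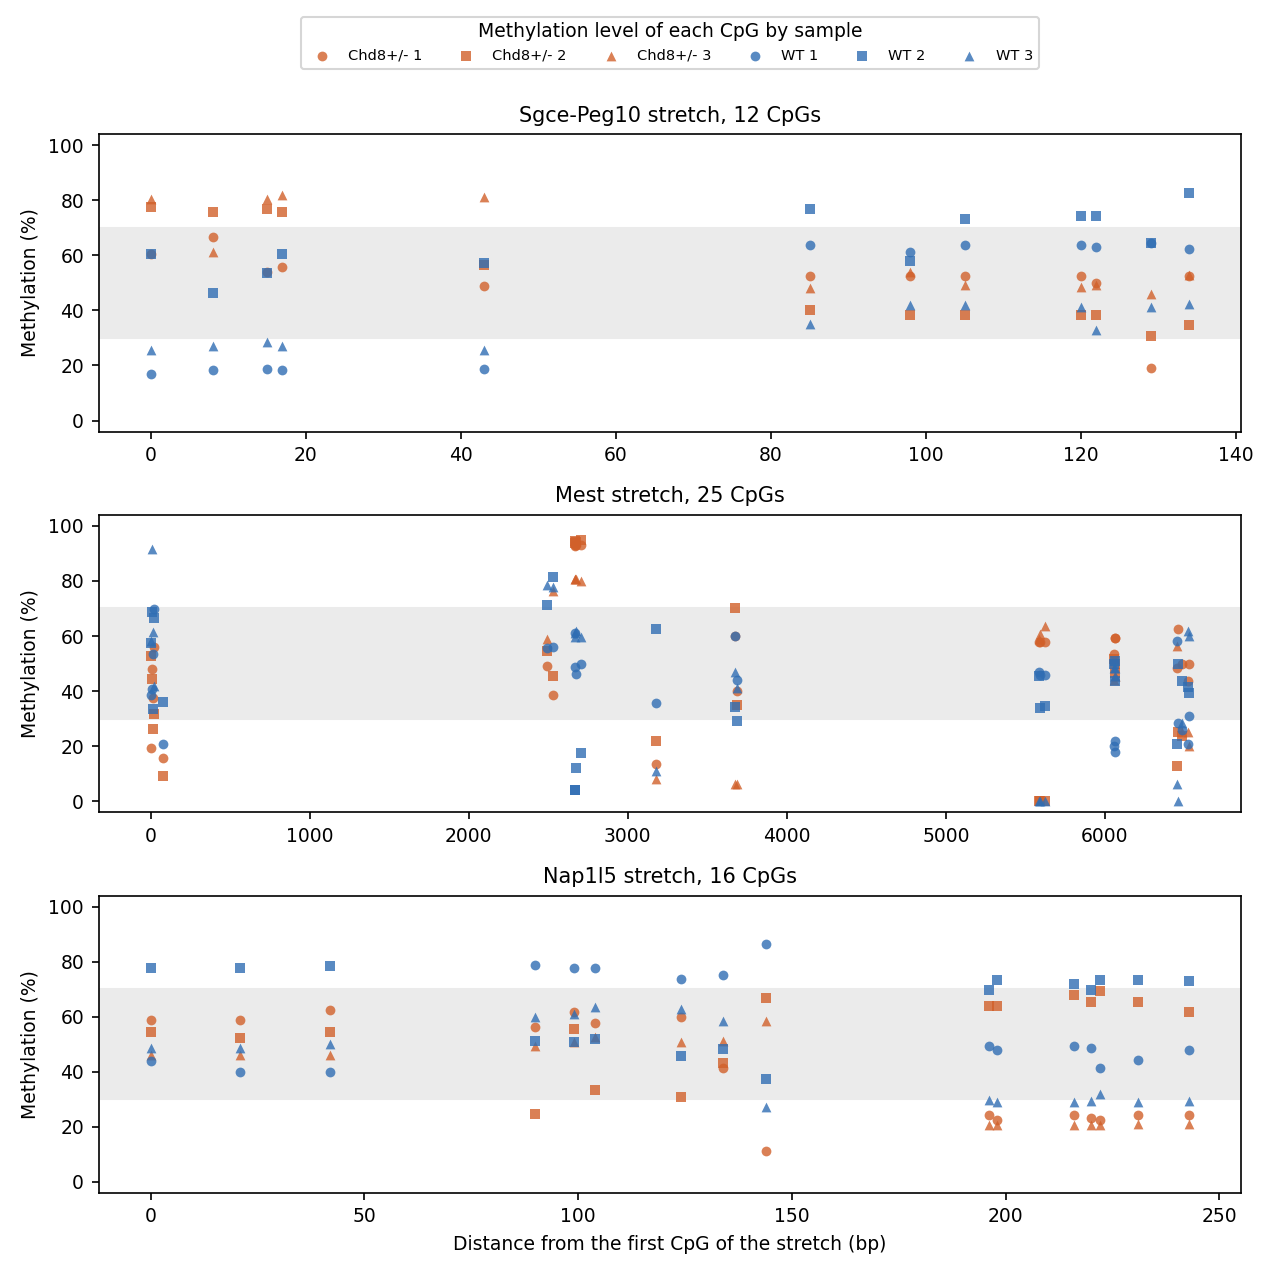
Methylation level (%) of each CpG of the 3 stretches against its distance in bp from the first CpG of the stretch, with Chd8+/- samples in orange, WT samples in blue, a marker shape for each replicate number and the range of 30 to 70% shaded. From 196 to 243 bp in the Nap1l5 stretch, neighbouring CpGs of 1 sample sit at nearly the same level while the samples stand apart. From 90 to 144 bp the level of some samples changes from CpG to CpG. In the Mest stretch the CpGs come in separate clumps.

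The border of the Sgce-Peg10 stretch was not resolved, because no member CpG lay within 7500 bp of it. On the left the next CpG, 4739783, lay 7572 bp away at a mean of 3.06%, and the next window with at least 3 CpGs, chr6:4733501-4734000, was at 96.1% with samples from 92.7 to 100%. On the right the next CpG, 4755338, lay 7849 bp away at 100% in each sample that covered it. The window that holds it, chr6:4755001-4755500, averaged 97.3%, with samples from 87.5 to 100%. The 12 CpGs were thus at an intermediate level, and the levels directly around them were not measured by member CpGs. The nearest member CpGs on the left, 4739783, 4739780 and 4739260, averaged 3.06, 22.8 and 37.6%. The nearest windows with at least 3 CpGs were high on both sides.

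Other places of the Sgce-Peg10 interval were also intermediate, with few CpGs each. The window chr6:4719001-4719500 held 3 CpGs and had 63.5, 52.4 and 82.3% in Chd8+/- samples 1, 2 and 3, against 78.1, 48.0 and 57.2% in WT samples 1, 2 and 3. A single CpG in chr6:4739001-4739500 had 14.8, 39.6 and 18.2% in Chd8+/- samples, against 36.8, 41.2 and 75% in WT samples. At both places the groups overlapped.

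The Mest stretch had the one close border. At CpG 30732411 the levels were 100, 83.3 and 100% in Chd8+/- samples 1, 2 and 3, against 96.6, 100 and 100% in WT samples 1, 2 and 3, with 13 to 50 reads per sample. At CpG 30732800, 389 bp to the right, they were 19.2 and 52.6% in Chd8+/- samples 1 and 2, against 38.7, 57.6 and 58.3% in WT samples, and Chd8+/- sample 3 had fewer than 10 reads. Each of the 5 samples covered at both CpGs was lower at the second one.

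On the right the Mest stretch had no border that member CpGs resolved. CpG 30742603, 3271 bp beyond its last CpG, averaged 39.6% with samples from 26.7 to 60%. CpG 30752221 had 35.3, 41.9 and 87.5% in Chd8+/- samples, against 56.4, 64.0 and 68.0% in WT samples. No window with at least 3 member CpGs lay outside the stretch.

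Beside the Nap1l5 stretch, member CpGs lay on the left only, and the border was not resolved. CpG 58880625, 2994 bp to the left, averaged 5.73% with samples from 0 to 8.33%. A pair of CpGs in chr6:58880001-58880500 had 32.3, 44.3 and 30.7% in Chd8+/- samples, against 5.18, 16.3 and 34.6% in WT samples. No member CpG lay to the right of the stretch before the end of the interval.

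The design asked whether methylation differs between Chd8+/- and WT neocortex, and at these 3 stretches the groups overlapped. The Sgce-Peg10 stretch had 51.4, 51.8 and 61.1% in Chd8+/- samples 1, 2 and 3, against 44.5, 65.2 and 34.2% in WT samples 1, 2 and 3. The 3 Chd8+/- samples lay between the WT samples 1 and 2, and WT sample 3 was the lowest. Means were 54.8 ± 5.51% in Chd8+/- and 47.9 ± 15.8% in WT (SD, n = 3 each), a difference of 6.85 points (SE 9.65) with an exact two-sided permutation p = 0.5. With 3 samples against 3, this test cannot go below 0.1. The difference was -3.21 within replicates 1 and 2, which share the lower chromosome X share, and 27.0 in replicate 3, with 1 sample a group. Without WT sample 3 it was -0.0329 points. The edgeR p of the window was 0.576, unadjusted.

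The Mest stretch, averaged over its 25 CpGs, had 54.0, 42.5 and 48.6% in Chd8+/- samples, against 41.7, 41.3 and 43.7% in WT samples. The WT samples lay within a narrow range, and Chd8+/- sample 2 fell inside it. Means were 48.4 ± 5.73% in Chd8+/- and 42.2 ± 1.31% in WT (SD, n = 3 each), a difference of 6.12 points (SE 3.40) with an exact permutation p = 0.2. The difference was 6.76 within replicates 1 and 2 and 4.84 in replicate 3. The samples did not cover the same CpGs, with 25, 23 and 19 of the 25 in Chd8+/- samples and 25, 25 and 24 in WT samples, and 17 in all 6. Over CpGs covered in all 6 samples, with the stretch set on these (15 CpGs), the difference was 13.3 points with an exact permutation p = 0.1. There the groups did not overlap. That set leaves out the whole window chr6:30732501-30733000, where the difference was -19.4 points.

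The Nap1l5 stretch was lower in the Chd8+/- mean, again with overlap. It had 39.6, 54.6 and 37.2% in Chd8+/- samples, against 57.6, 64.0 and 43.0% in WT samples. Chd8+/- sample 2 lay above WT sample 3, and the other 2 Chd8+/- samples lay below every WT sample. Means were 43.8 ± 9.40% in Chd8+/- and 54.8 ± 10.8% in WT (SD, n = 3 each), a difference of -11.0 points (SE 8.25) with an exact permutation p = 0.2. The difference was -13.7 within replicates 1 and 2 and -5.75 in replicate 3, and the edgeR p of the window was 0.291, unadjusted.

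The CpGs around the stretches gave the same measure next to them. Around the Sgce-Peg10 stretch, 32 CpGs averaged 84.8 ± 0.771% in Chd8+/- and 83.5 ± 4.64% in WT (SD, n = 3 each), a difference of 1.29 points with an exact permutation p = 1.0. Around the Nap1l5 stretch, 3 CpGs averaged 25.3 ± 5.59% in Chd8+/- and 17.9 ± 14.9% in WT, a difference of 7.33 points with an exact permutation p = 0.5. In both the groups overlapped.

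Around the Mest stretch, 4 CpGs had 60.7, 62.6 and 55.1% in Chd8+/- samples, against 76.5, 70.3 and 75.8% in WT samples. The groups did not overlap, and the difference of -14.7 points (SE 2.99) had an exact permutation p = 0.1, the smallest that the design allows. Chd8+/- sample 2 and WT sample 1 covered only 2 of the 4 CpGs. At the 2 CpGs covered in all 6 samples, 30732411 and 30752221, the differences were -4.41 and -7.89 points, with overlap. With stretch and flank set anew on CpGs covered in all 6 samples the difference was -0.289 points, and with at least 20 reads per CpG it was 13.0 points.

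**Figure D2:**
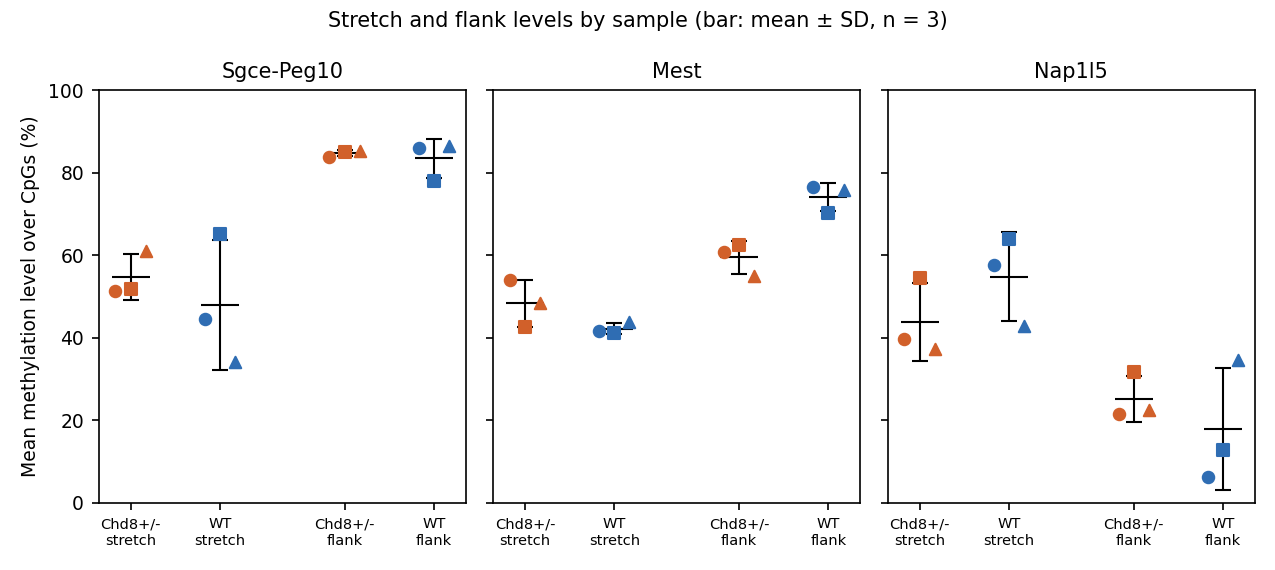
Mean methylation level (%) over the CpGs of each stretch and over the remaining CpGs of its interval (flank), 1 point per sample, Chd8+/- in orange left of WT in blue, with the bar at the mean and whiskers of 1 SD (n = 3). The stretches sit between 34.2 and 65.2% in every sample, the Sgce-Peg10 flank between 78.2 and 86.4%, and the Nap1l5 flank between 6.23 and 34.6%.

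Within the Mest stretch the windows differed in direction. The window chr6:30735001-30735500 (5 CpGs) had 73.3, 76.5 and 75.5% in Chd8+/- samples, against 53.5, 34.6 and 67.7% in WT samples. Every Chd8+/- sample lay above every WT sample. Means were 75.1 ± 1.61% in Chd8+/- and 51.9 ± 16.6% in WT (SD, n = 3 each), a difference of 23.2 points (SE 9.64). It was 14.5 points without WT sample 2 and 31.1 points without WT sample 3. The unadjusted p of this window was 0.115 in edgeR and 0.0887 in limma, and the edgeR p adjusted over all windows was 1.00. Over the 3 intervals, it was the only one of 7 near-50% windows with at least 3 CpGs covered in all 6 samples whose groups did not overlap. Across the autosomes 10.5% of 13618 such windows did not overlap, 6.84% with Chd8+/- higher and 3.63% with Chd8+/- lower.

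The window chr6:30732501-30733000 (5 CpGs) had 35.3 and 32.8% in Chd8+/- samples 1 and 2, against 44.6, 52.5 and 63.3% in WT samples 1, 2 and 3. Both Chd8+/- samples lay below the WT samples, and Chd8+/- sample 3 had no member CpG with 10 reads there. The unadjusted edgeR p was 0.281.

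The neighbouring window chr6:30735501-30736000 held only 2 CpGs and had 53.2, 58.2 and 44% in Chd8+/- samples, against 42.7, 39.9 and 35.3% in WT samples. Every Chd8+/- sample lay above every WT sample, a difference of 12.5 points (SE 4.70), and the autosomal share of windows covers only those with at least 3 CpGs. Its CpG 30735507 shares reads with CpGs 30735469 to 30735475 of the window before, so these windows are not independent. At its other CpG, 30735979, the levels were 13.3, 21.7 and 8% in Chd8+/- samples, against 35.5, 62.5 and 11.1% in WT samples, and the groups overlapped. The window chr6:30736001-30736500 (2 CpGs) had 50, 52.5 and 6.25% in Chd8+/- samples, against 52, 31.7 and 44.1% in WT samples, with overlap.

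The 3 windows at the right end of the Mest stretch overlapped between genotypes. The window chr6:30738001-30738500 (3 CpGs) had 57.7, 0 and 61.2% in Chd8+/- samples, against 46.1, 38.0 and 0% in WT samples. Chd8+/- sample 2 and WT sample 3 were at 0 and all others at intermediate levels. The window chr6:30738501-30739000 (3 CpGs) had 57.4, 49.5 and 45.0% in Chd8+/- samples, against 19.9, 48.3 and 47.4% in WT samples, with WT sample 1 far below the rest. The window chr6:30739001-30739500 (5 CpGs) averaged 34.4% in both Chd8+/- and WT. The unadjusted edgeR p of these windows was 0.740, 0.370 and 0.931.

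The levels were also taken per group of cytosines that share reads. RRBS reads of 1 fragment start at the same cut site, so CpGs close together on 1 strand share reads. Cytosines of 1 strand that lay at most 50 bp from the next were joined into a read group, a grouping chosen after the data were seen. The 3 stretches held 16 such groups, 2 in Sgce-Peg10, 10 in Mest and 4 in Nap1l5.

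The Sgce-Peg10 stretch consisted of 2 read groups that went opposite ways between genotypes. On the forward strand, 5 cytosines from 4747355 to 4747398 had 57.2, 72.5 and 77.1% in Chd8+/- samples, against 18.3, 55.6 and 26.8% in WT samples. Every Chd8+/- sample lay above every WT sample, a difference of 35.4 points (SE 12.8), with WT samples 1 and 3 apart from WT sample 2. On the reverse strand, 7 cytosines from 4747440 to 4747489 had 47.3, 37.0 and 49.7% in Chd8+/- samples, against 63.2, 72.0 and 39.4% in WT samples, a difference of -13.5 points (SE 10.5). There the groups overlapped, and WT sample 1 lay above every Chd8+/- sample, although it was the lowest of all 6 on the forward strand. By counting error alone, the 95% Wilson interval of WT sample 1 on the forward strand ran from 10.2 to 31.9% at 48 reads.

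In the Mest stretch the group with the highest mean, and with the widest range over the 6 samples, was 4 cytosines on the reverse strand, 30735469 to 30735507. It had 93.0, 94.3 and 80.6% in Chd8+/- samples, against 51.5, 9.39 and 60.4% in WT samples. The groups did not overlap, a difference of 48.8 points (SE 16.3), and WT sample 2 stood far below all others. The SD within genotypes was larger in other groups of the stretch, with 29.6 points in 30738386 to 30738425 against 20 here. The 95% Wilson interval of WT sample 2 in the reverse group was 2.32 to 25.8% at 24 reads. The forward group beside it, 30735293 to 30735329, had 43.8, 50 and 67.6% in Chd8+/- samples, against 55.7, 76.4 and 78.2% in WT samples. In it the Chd8+/- mean was the lower one, with overlap, so the higher level of the window came from its reverse strand.

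Towards its right end the Mest stretch had read groups at 0. The forward group 30738386 to 30738425 had 57.7, 0 and 61.2% in Chd8+/- samples, against 46.1, 34.3 and 0% in WT samples. The count of 0 in 17 reads of Chd8+/- sample 2 allows up to 17.6%, and that in 13 reads of WT sample 3 up to 23.1%. If reads count as independent, these 2 samples lay below the other 4, in either genotype. The spread of this group between samples equals that of only 2.53 independent draws, so these limits may be too narrow. The forward group 30739253 to 30739287 was at 0 in WT sample 3 as well, in 26 reads, which allows up to 11.5%. On the reverse strand at the same place, 30739253 to 30739332, WT sample 3 had 49.5%, the highest of all samples. There Chd8+/- sample 2 was at 0 in 11 reads, which allows up to 27.3%. Intervals and limits cover counting error only, because the reads carry no stated molecular identifiers.

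In the Nap1l5 stretch each of the 4 read groups had a lower mean in Chd8+/-, all with overlap. The reverse group of 7 cytosines, 58883815 to 58883862, had 23.7, 65.4 and 20.7% in Chd8+/- samples, against 46.9, 72.1 and 29.6% in WT samples. Sample 2 was the highest of each genotype and sample 3 the lowest. The forward group of 2 cytosines, 58883753 to 58883763, had 11.2, 66.7 and 58.0% in Chd8+/- samples, against 84.5, 37.0 and 26.1% in WT samples. Here sample 1 was the extreme of each genotype, at opposite ends. The differences of the 4 groups ran from -14.6 to -2.70 points.

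**Figure D3:**
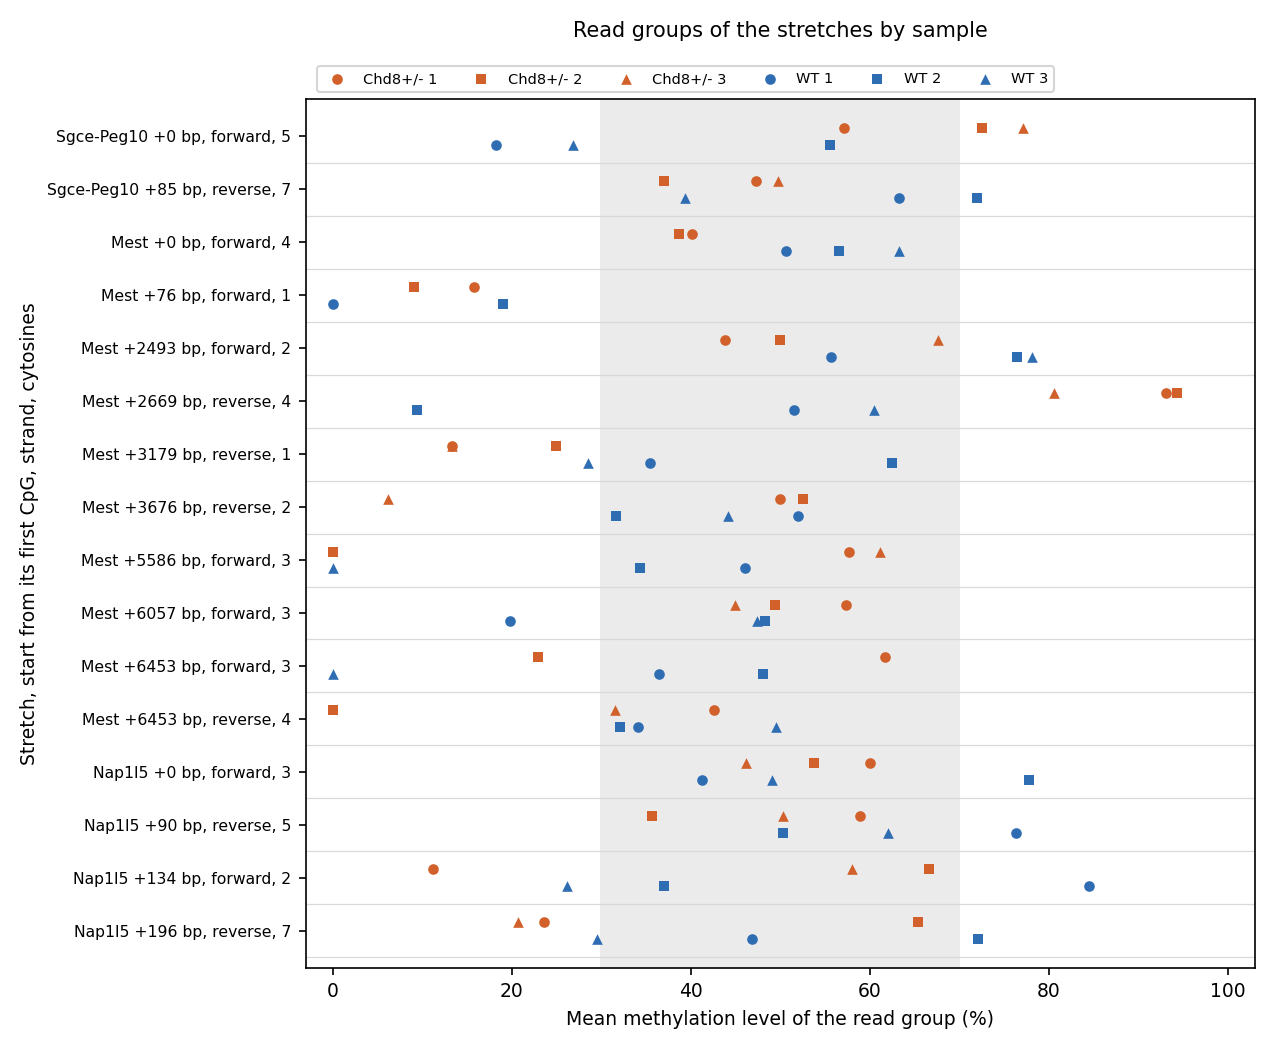
Mean methylation level (%) of the 16 read groups of the stretches, 1 row per group and 1 point per sample, Chd8+/- in orange above WT in blue, with the range of 30 to 70% shaded. Row labels give the distance of the first cytosine from the start of the stretch, the strand and the number of cytosines. Samples of 1 genotype spread over large parts of the axis in most rows.

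Of the 16 read groups, 6 had a higher and 10 a lower mean in Chd8+/-. Among the 12 that averaged 30 to 70% and were covered in all 6 samples, 2 did not overlap between genotypes, both higher in Chd8+/-. Across the autosomes 10.4% of 44241 such read groups did not overlap, 6.56% with Chd8+/- higher and 3.82% with Chd8+/- lower. The other 4 groups, all in the Mest stretch, lay outside 30 to 70% or lacked a sample and have no such share to be read against. Among them 2 did not overlap, both lower in Chd8+/-. The forward group 30732800 to 30732820 had 40.2 and 38.7% in Chd8+/- samples 1 and 2, against 50.6, 56.6 and 63.3% in WT samples. On the reverse strand alone, 30735979 had 13.3, 25 and 13.3% in Chd8+/- samples, against 35.5, 62.5 and 28.6% in WT samples.

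Cytosines of 1 read group differed less from each other at these stretches than in most near-50% read groups of the autosomes. In the 12 groups, the median range over the cytosines of a sample was 4.98 points, against 22 in 19543 autosomal near-50% read groups with 2 or more cytosines (quartiles 13.4 and 34.2). Of the 12, 10 lay under the lower quartile and 1 above the upper one, although they held a median of 3.5 cytosines against 2. With 3 or more cytosines the median was 4.60 points in 9 groups of the stretches, against 32.1 in 6401 groups of the autosomes. The level of a group ranged over the 6 samples by a median of 47.9 points in the 12 groups, against 35.7 in the autosomal ones (quartiles 25.5 and 48.4), and 10 of the 12 exceeded that median. Their depth was lower, with a median of 30.8 reads against 39.1, and its part in the result was not tested.

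**Figure D4:**
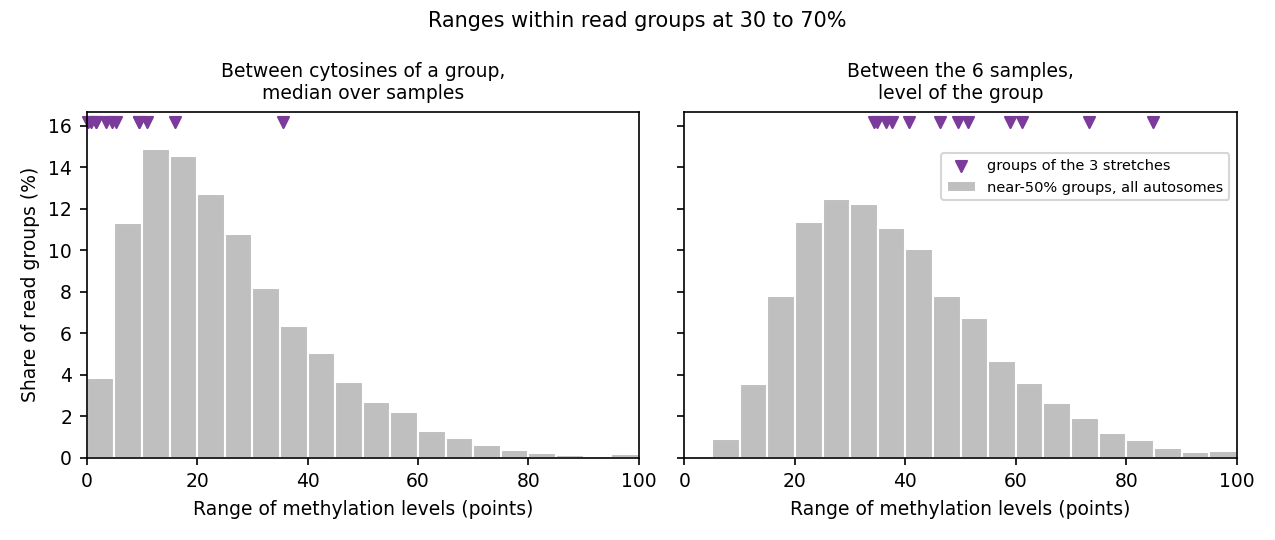
Share (%) of autosomal read groups at 30 to 70% with 2 or more cytosines (grey bars, 5 points wide) by the range in points between the cytosines of a sample (left) and between the 6 samples (right), with the 12 read groups of the stretches as triangles. In the left plot 10 of the 12 triangles lie under the lower quartile of 13.4 points, and in the right plot 10 of 12 lie above the median of 35.7 points.

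The spread between samples of a genotype was larger than read counts alone give, here and elsewhere. In the 12 groups it was 1.86 times the SD expected from the number of reads (median), against 1.93 times over the autosomal near-50% read groups. Such a spread would arise from a median of 8.82 independent draws in the 12 groups (range 2.53 to 16.4), against 10.4 over the autosomes (quartiles 5.45 and 21.3). Averaged over whole windows, the SD within genotypes was 11.8 points at the Sgce-Peg10 window and 10.1 at the Nap1l5 window. The median over near-50% windows with 10 or more CpGs was 8.02, and 78.5% and 66.7% of these 312 windows had a smaller SD than the Sgce-Peg10 and the Nap1l5 window. At Mest, the window chr6:30738001-30738500 had an SD of 29.9 points, larger than in 98.8% of all 13618 near-50% windows. The difference of 23.2 points at chr6:30735001-30735500 was larger than in 95.6% of them.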

How the data were processed

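Genomic DNA of 6 samples of P5 neocortex was assayed by RRBS with MspI, per the labels' protocols. The submitters' processing notes give mm39 as the build and list SAMtools 1.9, Bismark 0.20.0 and Trim Galore 0.4.4. Settings and any deduplication are not given in the sources used here. Each deposited table lists CpG cytosines with coverage, a count of reads, and, per the file headers, the percent read as cytosine, which is the methylation level. The lowest coverage listed was 10 reads. Methylated reads were coverage times percent, rounded, and came within 0.02 of a whole number for over 99.9% of cytosines. The authors' conversion statistics were not used.

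Strands were merged by adding reads, with the reverse position minus 1. A sample's level was the unweighted mean over its CpGs, compared by an exact two-sided permutation test (6 tests, 3 stretches and 3 flanks). Windows of 500 bp ran from the chromosome start and needed at least 3 member CpGs. Methylated and unmethylated counts of all autosomal windows were fitted with edgeR 4.0.16 in R 4.3.3, with a coverage term per sample and genotype acting on the methylated share, and, as an alternative, with limma 3.58.1 on the log2 ratio of counts plus 1. A sample without reads entered as 0 counts. Adjustment was by Benjamini-Hochberg at 0.05, and the code was tested on simulated counts. The other steps used scipy 1.17.1, pandas 2.3.3, numpy 2.4.6 and matplotlib 3.10.9 in Python 3.11.15.

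The members and lists were chosen with earlier results of these data known. The choice between 2 near-50% runs of equal length in the Sgce-Peg10 interval, by the number of CpGs (12 against 3), and the read groups were chosen once the data had been seen. The text names the 4 genes, each near-50% window (at least 3 CpGs) of a stretch, the nearest window on each side, and the window with the smallest p. Of CpGs, it names those next to a stretch and most of those at its ends. It gives the highest and lowest mean level in each stretch, without naming each of these CpGs. CpG 30752221, the windows of 1 or 2 CpGs and single read groups were picked after their values were seen. Alternatives were a minimum of 20 reads, CpGs covered in all 6 samples, weighting by reads, single strands, other window sizes and limits, the replicate block, within-replicate values, and each sample left out. Annotation in mm39 and promoter sequences of Sgce and Peg10 were not used here.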

Additional observations from a re-analysis of the deposited data

How the results depend on the processing

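The differences of the 3 stretches and 3 flanks were recomputed 113 times under the alternatives, and 12 reversed while the others kept their direction. Part of the others could not change, since the replicate block and most window sizes and limits left the same CpGs and the same value. No recomputed difference reached an exact permutation p under 0.05, which 3 samples against 3 cannot reach. The Sgce-Peg10 stretch (6.85 points) was -13.5 on the reverse strand alone and -3.21 within replicates 1 and 2, and it ran from -0.0329 (without WT replicate 3) to 15.5 with each sample left out. Its flank (1.29) was -0.393 over CpGs covered in all 6 samples, -1.58 on the forward strand and -0.985 in replicate 3, and -1.38 (without WT replicate 2) to 2.75 with each sample left out. The Mest stretch (6.12) was -19.4 when near 50% was set as 40 to 60%, which leaves 1 window, and 3.31 to 9.04 with each sample left out. Its flank (-14.7) was 13.0 with at least 20 reads and 7.29 with the limits of 40 to 60%, and -16.6 to -12.5 with each sample left out. The Nap1l5 stretch (-11.0) kept its sign in all 19 alternatives, of which 7 left the value as it was, with -3.19 on the forward strand alone and -17.0 to -6.47 as each sample was left out, and its flank (7.33) was -3.03 on the reverse strand and -12.1 in replicate 3, and 1.49 to 15.7 with each sample left out. Of single windows, that at 4719001 (4.97) ran from -3.16 to 13.5 and that at 30738001 (11.6) from -2.41 to 31.4 with each sample left out. That at 30739001 (-0.0145) was 3.30 with 20 reads, 5.57 over CpGs in all 6 samples and 1.68 weighted by reads, and -8.31 to 6.88 with each sample left out. Where no other cause is given, the cause was not tested.

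Over 13618 near-50% windows, deviations of same-numbered samples from their group means correlated at -0.0171, 0.00771 and -0.0127 for replicates 1, 2 and 3, so the numbers were not taken as pairs. With the replicate number as a block, the exact paired p was 0.75, 0.25 and 0.25 for the Sgce-Peg10, Mest and Nap1l5 stretches (3 pairs cannot go below 0.25), and edgeR called 0 windows. No window was called under any of the 12 alternatives of that fit, with the lowest adjusted p at 0.930, in limma. Depth limits single read groups: at 11 reads, a count of 0 allows up to 27.3%. The Mest flank on the reverse strand gave no value.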

Other observations

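CpGs that failed the member rule gave values in few samples. Next to the Sgce-Peg10 stretch, 4 CpGs from 4746905 to 4746934 were listed in WT sample 1 only, each at 0%, and CpGs 4744353 and 4744372 in Chd8+/- sample 3 only, at 50 and 27.3%. Inside the Mest stretch, 4 CpGs from 30738351 to 30738379 were listed in WT sample 2 only, each at 100%. They lie within 50 bp of the forward-strand read group that was at 34.3% in that sample. The strand of these CpGs was not analysed here, so they need not share its reads. Right of the Mest stretch, CpG 30742828 had 100, 100 and 87.5% in WT samples 1, 2 and 3 only. CpG 30742863 had 73.1% in Chd8+/- sample 3, against 56.25, 100 and 87.5% in WT samples. CpG 30742889 was at 100% in Chd8+/- sample 3 and WT sample 1. CpG 30743026 had 0, 93.3 and 100% in Chd8+/- samples 1, 2 and 3, against 73.1% in WT sample 2. CpG 30743035 had 0, 46.7 and 100% in these Chd8+/- samples, against 29.6% in WT sample 2. Of the 43 CpGs that failed the rule, 24 lay in the Sgce-Peg10 interval, 17 in the Mest interval and 2 in the Nap1l5 interval.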
